A study of Xenopus laevis with 6 samples.

Results

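The genes examined were those of voltage-gated and related ion channels in the preoptic area, hypothalamus and pituitary of juvenile *Xenopus laevis*, compared 2 h after an injection of leptin or saline into the brain ventricles. A gene was taken as a member when its annotated symbol, in lower case and without the suffix .L or .S, began with kcn (potassium channels), cacn (calcium channels), scn (sodium channels), hcn, or trpa, trpc, trpm or trpv and a digit. The rule used names alone and no measured value beyond the choice of 1 probe set per gene, the one with the highest mean signal over all frogs. It gave 49 genes of the 9271 that had a probe set with a single symbol, and 67 probe sets in all. The genes were 30 kcn, 7 cacn, 8 scn and 4 trp genes, and none began with hcn, trpa or trpv. The symbols of 2 members fit the rule although the products are no channel subunits: *scnm1*, a splicing factor named for a sodium channel, and *trpc4ap*, a protein that associates with a TRP channel. The symbols *kcnb2-a* and *kcnb2.S* were counted as separate genes in all counts, although *kcnb2-a* may be an older name of a *kcnb2* copy.

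Ion channels set the membrane potential of neurons and endocrine cells. Sodium channels carry the upstroke of the action potential, potassium channels repolarise the membrane and hold it at rest, calcium channels couple depolarisation to the release of transmitter and hormone, and most TRP channels are cation channels that open downstream of receptors or on sensory stimuli. In rodents, leptin is known to depolarise some hypothalamic neurons through TRPC channels and to silence others by opening ATP-sensitive potassium channels, both by acting on channel protein within minutes. Hybridization signals measure transcripts, so the comparison asks whether channel mRNA differed after 2 h.

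The control group was 3 frogs given 0.6% saline (frogs 1 to 3), and the other group was 3 frogs given the *X. laevis* hormone, made as a recombinant protein, at a dose of 20 ng for each g of body weight (frogs 4 to 6), each with 1 array. All were juveniles with an average body weight of 0.8 g, and no strain, sex or genetic change is given in the labels. Values are deposited log2 signals, so that a difference of 1 is a doubling, and the number of arrays limits their precision. The genome of *X. laevis* is a doubled one, and a symbol ending in .L or .S names the copy that lies on the longer or shorter chromosome of a pair. Signals of different probe sets depend on their own hybridization, and so no level of a gene is compared with that of another.

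The tissue blocks differed in the signal of cell type and region markers. Neuron markers had a mean signal of 11.68 to 11.91 over 9 measured genes in the 6 frogs. Pituitary markers (7 of 11 listed genes measured) had a mean of 5.34 in saline frog 1 and of 10.01 to 11.15 in the other frogs, so that frog 1 had low pituitary hormone signal. Skeletal muscle markers (11 of 12 measured) had a mean of 8.37 in saline frog 3 and of 5.93 to 6.52 elsewhere. Pallium markers (5 of 10 measured) had a mean of 8.48 in the same frog and of 9.59 to 9.87 elsewhere. Not every marker moved with the mean of its list. The pituitary marker *pitx1.L* read 6.05 in saline frog 1 and 6.13 in saline frog 2. The muscle markers *myh4.L* (4.28) and *tnnt1.S* (5.72) were not raised in saline frog 3. In such blocks a lower signal can mean fewer cells of a type or less RNA per cell, and these cannot be told apart.

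Channel transcripts as a set differed little between leptin and saline frogs. Of the 49 genes, 28 were higher (57.1%, against 44.9% of all genes) and 21 lower in the leptin group. The median difference was 0.01 on the log2 scale (median -0.02 over all 9271 genes). The median size of a difference, without its sign, was 0.074 for channel genes and 0.096 for all genes. These sets differ in signal, as 20 of the 49 channel genes and 6202 of the 9271 genes were in the brighter 50% of probe sets. In that range the order was reversed, with a median size of 0.099 for channel genes and 0.088 for all genes. For the 29 dimmer channel genes it was 0.049. Single differences ran from -0.26 (*scnn1b.L*, a subunit of the epithelial sodium channel) to 0.56 (*scn4b.L*, an auxiliary subunit of neuronal sodium channels). With limma, 0 of 49 channel genes passed an adjusted p of 0.05, and the background was also 0.0% of all genes. The smallest adjusted p of a channel gene was 0.906.

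At an unadjusted limma p under 0.05 there was 1 channel gene, *kcna3*, which is 2.04% of the 49, where the background over all genes was 4.88%. It was 0 without leptin frog 5 (background 3.16% of all genes), and 2 without saline frog 2 (7.5%) or without saline frog 3 (4.02%). The groups did not overlap for 3 channel genes, 6.12% of the 49, against a background of 14.4% of all genes. These were *kcna3.S*, above in every leptin frog (background 4.51%), and *kcnq1.L* and *scn3b.L*, below in every leptin frog (background 9.85%). Both shares were below the background, so these counts are no result about channel genes.

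The intervals bound the difference in signal for most members. For 36 of the 49 genes (73.5%), the 95% interval of the difference lay within 0.5 on the log2 scale on either side of 0, that is within a 1.41-fold change in either direction. The same held for 71.6% of all genes. In the brighter 50% of probe sets it held for 65.0% of the 20 channel genes and 79.1% of all genes. Of the 36 genes, 23 were among the 29 dimmer channel genes (79.3%), some of which may report little beyond background. The intervals are from limma, 1 gene at a time and without adjustment. The 13 genes with wider intervals reach beyond 0.5 on at least 1 side, so that a change larger than 0.5 in them is not excluded by these arrays. For 46 genes the interval lay within 1 on either side, and the remaining members were *scn4b.L*, *scnn1b.L* and *kcnab3.L*.

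**Figure D1:**
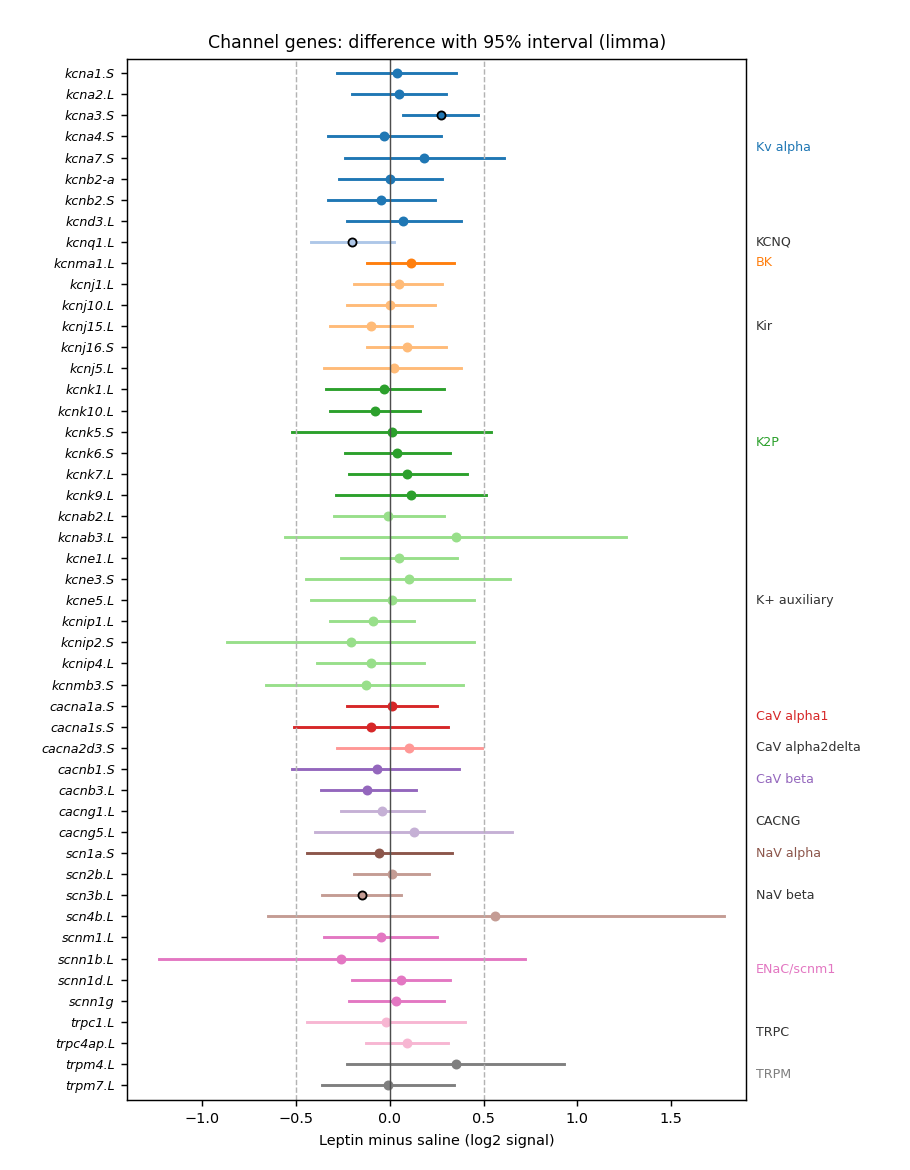
Leptin minus saline difference (log2 signal, horizontal axis) for the 49 genes, grouped by family, with the 95% limma interval as a bar. Points with a black rim are the 3 genes whose groups did not overlap, and the dashed lines at -0.5 and 0.5 enclose the intervals of 36 genes.

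Among the pore-forming subunits of voltage-gated potassium channels, which repolarise neurons after a spike, 6 of 8 genes were higher in leptin frogs and 2 lower, with a median difference of 0.04 on the log2 scale. The member with the smallest p was *kcna3.S*, a delayed rectifier of the Shaker subfamily that is known in mammals from neurons and lymphocytes. Its log2 signal was 7.72, 7.80 and 7.66 in saline frogs 1 to 3 and 7.90, 8.05 and 8.03 in leptin frogs 4 to 6. Every leptin frog lay above every saline frog, with a gap of 0.10 between the groups and ranges of 0.13 and 0.15 within them. Saline frogs averaged 7.73 ± 0.07 and leptin frogs 7.99 ± 0.08 (SD, n = 3 each), a 1.20-fold ratio (log2 0.27, SE 0.08, limma adjusted p = 0.906). It did not pass, and without leptin frog 5 or with the muscle covariate its unadjusted p was also above 0.05.

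The other Shaker-type genes showed smaller differences. For *kcna1.S*, which in mammals limits firing along axons, the signal was 8.23, 8.36 and 8.25 in saline and 8.08, 8.32 and 8.55 in leptin frogs, with groups that overlapped (log2 0.04, SE 0.13). The related *kcna2.L* differed by 0.05 (SE 0.11), *kcna7.S* by 0.18 (SE 0.18), and *kcna4.S*, which gives a fast inactivating current, by -0.03 (SE 0.13). The highest value of *kcna7.S*, 5.57, was in leptin frog 6, and the other frogs lay between 4.89 and 5.12.

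Fast inactivating channels that delay the first spike are also formed by *kcnd3.L*. It read 11.01, 11.11 and 10.67 in saline frogs and 11.01, 11.01 and 10.99 in leptin frogs (log2 0.07, SE 0.13, interval -0.23 to 0.38). Saline frog 3 was the low sample, and the 5 others lay within 0.12 of one another. The delayed rectifier *kcnb2.S* differed by -0.05 (SE 0.12). The separate entry *kcnb2-a*, which the gene table did not match, may be another name of a *kcnb2* copy. It differed by 0.00 (SE 0.11), and before rounding it counted among the higher genes of this family. Its signal was low, at percentile 12.8 of all probe sets.

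Of the channels that respond slowly to voltage or to calcium, *kcnq1.L* encodes the pore of a slow delayed rectifier known best from heart and epithelia of mammals. It read 5.99, 5.79 and 5.94 in saline frogs and 5.75, 5.61 and 5.77 in leptin frogs. The groups did not overlap, but saline frog 2 and leptin frog 6 were only 0.02 apart on this scale. The difference was -0.20 (SE 0.09, limma adjusted p = 0.906). Its unadjusted limma p was under 0.05 without saline frog 2, with quantile normalization and with array weights (smallest limma adjusted p 0.697). A further *kcnq1.L* probe set, with overlapping groups, differed by -0.11 (SE 0.16). That probe set was at percentile 5.7 of mean signal, where a probe set may report little beyond background.

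The large-conductance potassium channel that opens with both calcium and depolarisation, *kcnma1.L*, had a narrow range in the leptin group. Its signal was 10.05, 10.03 and 9.78 in saline and 10.05, 10.07 and 10.06 in leptin frogs. Saline frog 3 was the low sample and the other frogs lay close together, and the difference of 0.11 (SE 0.10, interval -0.12 to 0.34) did not pass and was 0.02 without that frog. Its auxiliary subunit *kcnmb3.S* varied more, from 7.38 in saline frog 1 to 8.20 in saline frog 3, with a difference of -0.13 (SE 0.22).

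Inward rectifiers, which hold the resting potential and clear potassium, showed no separation of the groups in any of 5 genes (background 14.4% of all genes). All 5 intervals lay within 0.5, as did those of 71.6% of all genes. The glial channel *kcnj10.L*, through which astrocytes in mammals take up extracellular potassium, read 10.23, 10.15 and 10.35 in saline frogs and 10.12, 10.26 and 10.36 in leptin frogs. The groups overlapped almost fully, and the difference was 0.00 (SE 0.10, interval -0.23 to 0.24). Its partner *kcnj16.S* differed by 0.09 (SE 0.09) and *kcnj15.L* by -0.10 (SE 0.09). The G protein-activated channel subunit *kcnj5.L* differed by 0.02 (SE 0.15), and *kcnj1.L*, a channel of kidney epithelium in mammals, by 0.05 (SE 0.10). Except for *kcnj10.L*, these probe sets lay between percentiles 7.2 and 17.5 of mean signal among all probe sets, where a probe set may report little beyond background. The genes of the ATP-sensitive channel, *kcnj8*, *kcnj11*, *abcc8* and *abcc9*, were looked for but had no probe set with a single symbol.

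Two-pore-domain channels, which carry the resting leak current, had differences from -0.08 to 0.11 in 6 genes, and 4 of the 6 were higher. The acid-sensitive leak channel *kcnk9.L* read 9.15, 9.21 and 8.67 in saline frogs and 9.23, 9.20 and 8.93 in leptin frogs. Saline frog 3 and leptin frog 6 were the low samples of their groups, and the difference was 0.11 (SE 0.17, interval -0.29 to 0.51). The stretch-activated *kcnk10.L* differed by -0.08 (SE 0.10), *kcnk1.L* by -0.03 (SE 0.13), *kcnk5.S* by 0.01 (SE 0.22), *kcnk6.S* by 0.04 (SE 0.12) and *kcnk7.L* by 0.09 (SE 0.13). The signal of *kcnk7.L* was at percentile 5.9 of all probe sets, where a probe set may report little beyond background.

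Auxiliary subunits, which set the gating and trafficking of the potassium channel pores, were measured by 9 genes. Of these, 4 were higher and 5 lower in leptin frogs (median -0.01). The beta subunit *kcnab3.L* read 8.12, 8.59 and 9.40 in saline frogs and 8.67, 8.86 and 9.63 in leptin frogs. The difference of 0.35 (SE 0.38) was smaller than the spread within either group, whose SD was 0.65 in saline and 0.51 in leptin frogs (n = 3 each). It was 0.06 without saline frog 1 or leptin frog 6, 0.70 when saline frog 3 was left out and 0.54 when leptin frog 4 was. With the pituitary covariate it was 0.07, and with the muscle covariate 0.76. The pituitary covariate stood apart in saline frog 1 and the muscle covariate in saline frog 3, so each nearly repeats leaving that frog out. The calcium-binding partners of *kcnd3* were measured by 3 genes. *kcnip1.L* differed by -0.09 (SE 0.09), *kcnip2.S* by -0.21 (SE 0.27) and *kcnip4.L* by -0.10 (SE 0.12), so that all were nominally lower and none passed. Among the small single-span subunits, *kcne1.L* differed by 0.05 (SE 0.13), *kcne3.S* by 0.10 (SE 0.23) and *kcne5.L* by 0.01 (SE 0.18). The signal of *kcne1.L* was low, at percentile 10.4 of all probe sets.

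Calcium channel genes gave 3 higher and 4 lower values. An unadjusted limma p under 0.05 was found for 0 of the 7 (background 4.88% of all genes). Groups did not overlap for 0 (background 14.4%). With so few genes these counts are no result about calcium channels. The pore of the presynaptic channel that triggers transmitter release, *cacna1a.S*, read 5.40, 5.43 and 5.51 in saline frogs and 5.40, 5.34 and 5.62 in leptin frogs. The leptin range of *cacna1a.S* enclosed the saline range, and the difference was 0.01 (SE 0.10, interval -0.23 to 0.25). The cytoplasmic beta subunits, which bring the pore to the membrane, differed by -0.07 (*cacnb1.S*, SE 0.19) and -0.12 (*cacnb3.L*, SE 0.11). The extracellular subunit *cacna2d3.S* differed by 0.10 (SE 0.16). The gamma subunit family member *cacng5.L*, which in rodents regulates AMPA-type glutamate receptors, read 10.52, 10.59 and 9.85 in saline frogs and 10.57, 10.58 and 10.20 in leptin frogs. Its low samples were saline frog 3 and leptin frog 6, and the difference was 0.13 (SE 0.22).

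The channel genes best known from skeletal muscle were not raised in saline frog 3. Their signals were too low to show whether they followed the muscle markers. The muscle pore *cacna1s.S* read 3.96 in that frog and 3.62 to 4.22 in the others, and the muscle gamma subunit *cacng1.L* read 4.01 there and 3.83 to 4.08 in the others. These probe sets lay at percentiles 4.6 and 5.4 of mean signal, where a probe set may report little beyond background. The leptin minus saline differences were -0.10 (SE 0.17) for *cacna1s.S* and -0.04 (SE 0.09) for *cacng1.L*.

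Sodium channel pores were represented by *scn1a.S*, which in mammals drives fast-spiking interneurons. It read 6.51, 6.88 and 6.28 in saline frogs and 6.54, 6.57 and 6.38 in leptin frogs. Leptin frogs lay inside the saline range, and the difference was -0.06 (SE 0.16, interval -0.44 to 0.33).

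The beta subunits of sodium channels, adhesion proteins that tune gating and anchor the pore, differed from one another in their spread over frogs. *scn2b.L* had the smallest spread of all channel genes, with values of 13.11, 13.08 and 13.20 in saline frogs and 13.04, 13.16 and 13.21 in leptin frogs (log2 0.01, SE 0.08, interval -0.19 to 0.21). *scn3b.L* read 10.87, 10.71 and 10.66 in saline frogs and 10.63, 10.62 and 10.54 in leptin frogs. The groups of *scn3b.L* did not overlap, yet the gap between saline frog 3 and leptin frog 4 was 0.03, and the difference of -0.15 (SE 0.09, limma adjusted p = 0.906) did not pass. *scn4b.L*, which in mammals promotes resurgent sodium current, read 7.57, 8.01 and 9.46 in saline frogs and 8.53, 8.72 and 9.48 in leptin frogs.

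For *scn4b.L* the samples within a group differed by more than the groups did. Saline frogs averaged 8.35 ± 0.99 and leptin frogs 8.91 ± 0.50 (SD, n = 3 each), and the difference was 0.56 (SE 0.51, limma adjusted p = 0.906). Without saline frog 3 the difference was 1.12, with an unadjusted p under 0.05 (limma adjusted p = 0.954). With the muscle covariate it was 1.27 (limma adjusted p = 0.992). It was 0.18 without saline frog 1, 0.28 without leptin frog 6 and 0.17 with the pituitary covariate. As for *kcnab3.L*, the covariate fits nearly repeat leaving out saline frog 3 (muscle) or saline frog 1 (pituitary). A further *scn4b.L* probe set read 6.24, 6.51 and 6.67 in saline frogs and 6.68, 6.71 and 7.58 in leptin frogs (log2 0.52, SE 0.26, limma adjusted p = 0.906). In that probe set the groups did not overlap, with 0.01 between saline frog 3 and leptin frog 4.

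**Figure D2:**
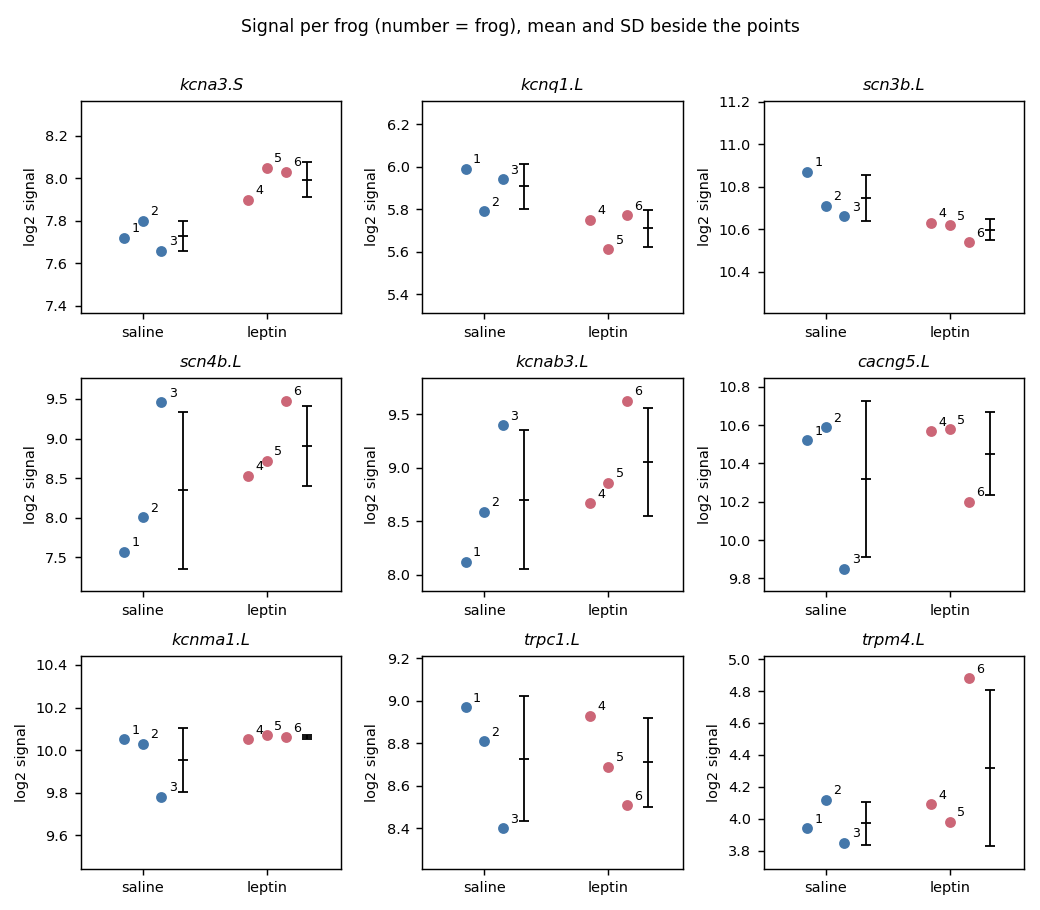
Log2 signal of 9 channel genes in each frog (points numbered by frog, blue for saline, red for leptin), with the group mean and SD beside them. *kcna3.S* separates the groups, *kcnq1.L* and *scn3b.L* do so by 0.02 and 0.03, and in *scn4b.L*, *kcnab3.L* and *cacng5.L* the frogs within a group differ by more than the groups do.

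The epithelial sodium channel, which carries sodium across kidney and skin epithelium, had 3 subunits with a single-symbol probe set. *scnn1b.L* read 6.42, 7.49 and 5.82 in saline frogs and 6.14, 6.23 and 6.60 in leptin frogs. Saline frog 2 was high and saline frog 3 low, and the difference of -0.26 (SE 0.40) was 0.20 without saline frog 2. With the muscle covariate it was -0.88 (limma adjusted p = 0.992). The other subunits differed by 0.03 (*scnn1g*, SE 0.11) and 0.06 (*scnn1d.L*, SE 0.11). By mean signal *scnn1d.L* lay at percentile 5.5 of all probe sets, where a probe set may report little beyond background. A further probe set, *scnn1g.L*, was low in saline frog 3 at 4.86, against 5.96 to 6.48 elsewhere, and differed by 0.44 (SE 0.39), and the average over the *scnn1g* probe sets differed by 0.18. The splicing factor *scnm1.L* differed by -0.05 (SE 0.12).

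Among the TRPC channels, which carry a depolarising leptin response in rodents, the only pore-forming TRPC gene with a named probe set was *trpc1.L*, a subunit that assembles with other TRPC proteins. It read 8.97, 8.81 and 8.40 in saline frogs and 8.93, 8.69 and 8.51 in leptin frogs. The groups covered nearly the same range, and the difference was -0.02 (SE 0.18, interval -0.44 to 0.40, limma adjusted p = 0.989). The other *trpc1.L* probe sets differed by 0.01 (SE 0.18) and -0.35 (SE 0.18, limma adjusted p = 0.906), so their nominal signs differed, though 0.01 is far within its SE. They were dimmer, at percentiles 30.8 and 13.8 of mean signal, against 67.3 for the probe set used. At the lower of these a probe set may report little beyond background. *trpc4ap.L* differed by 0.09 (SE 0.09).

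Of the TRPM genes, *trpm4.L* encodes a cation channel opened by intracellular calcium. It read 3.94, 4.12 and 3.85 in saline frogs and 4.09, 3.98 and 4.88 in leptin frogs. The difference of 0.35 (SE 0.24, limma adjusted p = 0.906) came with a high value in leptin frog 6, and it was 0.07 without that frog. By mean signal it lay at percentile 7.3 of all probe sets. *trpm7.L*, a channel joined to a kinase that admits magnesium, read 5.96, 6.25 and 6.03 in saline frogs and 6.08, 6.30 and 5.82 in leptin frogs (log2 -0.01, SE 0.15).

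Several probe sets or gene copies were available for 15 of the 49 genes. For 9 of them no probe set went against another in sign, after rounding to 2 decimals, and for 6 they did. Both copies were measured in 4 genes. For *cacnb3* the difference was -0.12 in the .L copy and 0.20 in the .S copy, whereas *kcnk1* was at -0.03 (.L) and -0.21 (.S) and *scnn1b* at -0.26 (.L) and -0.11 (.S). For *kcnk6* the values were -0.10 (.L) and 0.04 (.S). Of the 18 further probe sets, 1 had an unadjusted limma p under 0.05 and 1, for *scn4b.L*, had groups that did not overlap, where the background over all probe sets was 4.71% and 11.9%. The first was a further *kcnab2.L* probe set, named after its values were seen, with a difference of -0.29 (SE 0.12, limma adjusted p = 0.906), while the brightest *kcnab2.L* probe set differed by -0.01 (SE 0.12).

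**Figure D3:**
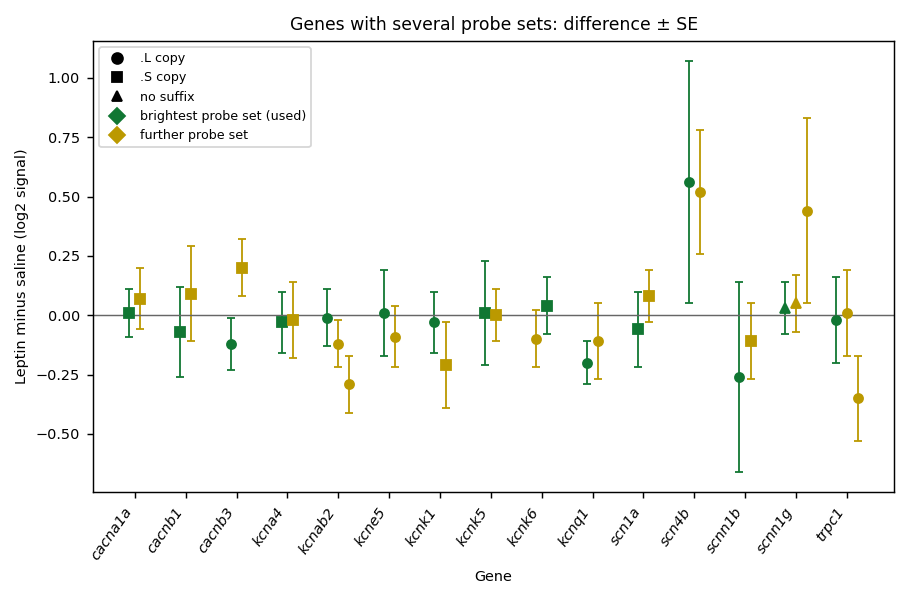
Leptin minus saline difference (log2 signal) with SE for each probe set of the 15 genes that had several. Circles are .L copies, squares .S copies and triangles probe sets with no suffix, green marks the brightest probe set of a gene, and the 2 *scn4b* probe sets lie together at 0.56 and 0.52 while those of *cacnb3* and *trpc1* fall on both sides of 0.

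In a few channel genes single frogs stood far apart. The 6 largest spreads over the frogs belonged to *scn4b.L* (SD 0.77), *scnn1b.L* (SD 0.57), *kcnab3.L* (SD 0.55), *kcnip2.S* (SD 0.39), *trpm4.L* (SD 0.37) and *kcne3.S* (SD 0.31), where the median SD was 0.15 over channel genes and 0.14 over all genes (n = 6 frogs). *scn4b.L* and *kcnab3.L* had the same order of frogs. Both were lowest in saline frog 1, next in saline frog 2, then in leptin frogs 4 and 5, and highest in saline frog 3 and leptin frog 6. Oligodendrocyte markers (3 of 8 listed genes measured) had means of 9.26, 8.89 and 9.72 in saline frogs and 9.43, 9.41 and 9.83 in leptin frogs. They were also highest in saline frog 3 and leptin frog 6, but lowest in saline frog 2. Neuron markers had means of 11.69, 11.68 and 11.83 in saline frogs and 11.80, 11.74 and 11.91 in leptin frogs. Choroid plexus and ependyma markers (5 of 6 measured) had means of 7.91, 8.03 and 8.23 in saline frogs and 7.87, 8.01 and 8.28 in leptin frogs. The means of both of these lists were highest in the same frogs as well, but single markers differed. Among neuron markers, *nefm.L* was highest in leptin frog 6 (11.82), whereas *stmn2.L* (13.17) and *syt1.L* (5.68) were lowest there. In the choroid plexus and ependyma list, *otx2.L* was highest in saline frog 3 (9.70) and leptin frog 6 (9.48). *foxj1.S* was highest in leptin frog 5 (8.69). The part of tissue makeup in these values was not tested.

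Saline frog 3 had the lowest value of the 6 frogs for 14 of the 49 channel genes (28.6%), where it had the lowest value for 18.4% of all genes. It had the highest value for 3 channel genes (6.12%) and for 28.5% of all genes. Among the 20 channel genes in the brighter 50% of probe sets it was lowest for 8, where it was lowest for 19.5% of all genes in that range. The 8 were *kcnd3.L*, *kcnma1.L*, *kcna3.S*, *kcna4.S*, *kcnk9.L*, *cacng5.L*, *cacnb1.S* and *trpc1.L*. This is the frog with muscle transcripts and with low pallium markers, and the part of either in these values was not tested. Leptin frog 6 had the highest value for 16 channel genes (32.7%), against 19.7% of all genes. Of these, 10 were among the 29 channel genes in the dimmer 50% of probe sets, in which it was highest for 38.3% of all genes. Another 6 were among the 20 channel genes in the brighter 50%, in which it was highest for 10.5% of all genes.

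**Figure D4:**
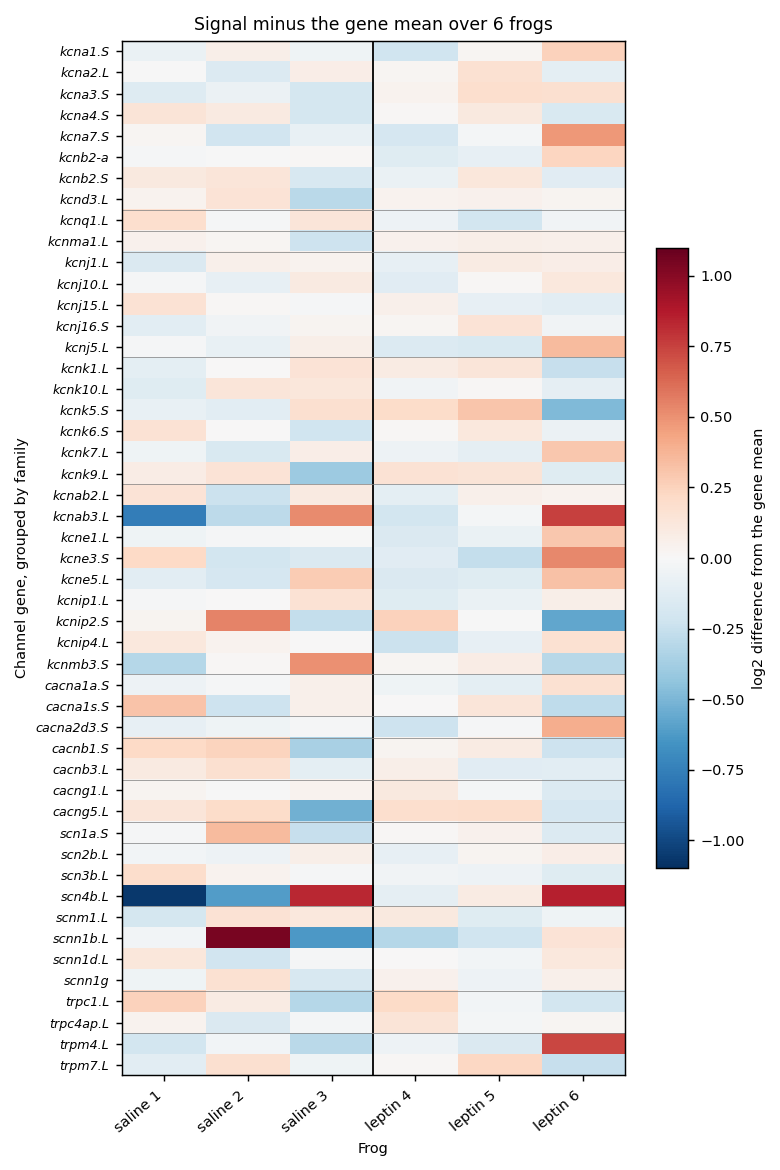
Log2 signal of each channel gene in each frog minus the mean of that gene over the 6 frogs, with genes in rows grouped by family and a black line between saline and leptin frogs. No block of rows changes colour at that line, and the strongest colours are in *scn4b.L*, *scnn1b.L* and *kcnab3.L*, where several frogs depart from the gene mean, and in *trpm4.L*, where leptin frog 6 does.

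Genes of ion handling outside the name rule were read in the same fit. Of 89 listed channels, pumps, exchangers and partners of channels, 34 had a probe set with a single symbol. Among these, 20 were higher (58.8%, against 44.9% of all genes) and 14 lower in leptin frogs, with a median difference of 0.04. An unadjusted limma p under 0.05 was found for 0 (background 4.88%), and an adjusted p under 0.05 for 0 (background 0.0%). First by p in the list was the endolysosomal channel *mcoln3.S* (log2 -0.15, SE 0.10, limma adjusted p = 0.906). The groups did not overlap for 2 genes, both higher in leptin frogs (background 14.4% of all genes in either direction and 4.51% higher), the calcium pump *atp2a1.S* (log2 0.10, SE 0.07) and the calcium store sensor *stim1.L* (log2 0.07, SE 0.07). The inositol trisphosphate receptor *itpr1.S*, which releases calcium from stores, differed by 0.18 (SE 0.13). The sodium pump subunits *atp1b1.S*, *atp1b2.S* and *atp1b3.S* differed by -0.04, 0.15 and -0.01.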

How the data were processed

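RNA from 6 tissue blocks was hybridized to 1 Affymetrix array each. Per the labels, biotin-labelled RNA was made by amplification of 250 ng total RNA, and each sample is numbered as its own frog. Values were used as deposited, on the log2 scale, with a column for each array. RMA, affy and limma are the tools in the submitters' processing notes, and further settings are not stated there. Leaving out 96 AFFX controls left 32539 probe sets. The array annotation gave 1 symbol to 15495 of these, several to 279 and none to 16765. Of the 67 channel probe sets, 63 matched a RefSeq gene of Xenopus_laevis_v10.1 by Entrez identifier.

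The groups were compared with limma 3.58.1 (R 4.3.3, lmFit and eBayes), two-sided, over all probe sets, with Benjamini-Hochberg adjustment over all of them and a threshold of 0.05. Errors are moderated standard errors (SE) and group SDs. In data simulated for this comparison under limma's own variance model with 32539 probe sets, 72% of those changed by 1 and 94% of those changed by 2 on the log2 scale passed. False calls numbered 15. The simulated noise was independent between probe sets and held no differences between tissue blocks. Changes smaller than 1 were not simulated.

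Members and lists were chosen with earlier results of these data known. Named genes were, per family, the 2 with the smallest p, the brightest, any with p under 0.05, and any that did not overlap and differed by 0.3 or more. All TRPC genes and the 6 largest spreads were added, and the other members are given so that all 49 are accounted for. Alternatives left out each frog or changed the scaling, variance model, filter, probe set summary or covariate. The muscle covariate was the mean signal of *acta1*, *tnnt3*, *ckm* and *mylpf*, and the pituitary covariate that of *pomc*, *gh1* and *cga*. Both sets are parts of the longer marker lists given above. The muscle covariate was 9.901 in saline frog 3 and 6.309 to 7.255 in the others. The pituitary covariate was 5.875 in saline frog 1 and 12.243 to 13.139 in the others. Each covariate thus mainly sets 1 frog apart.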

Additional observations from a re-analysis of the deposited data

How the results depend on the processing

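No channel gene passed an adjusted p of 0.05 in any of 14 alternatives, of which the restriction to the brighter 50% of probe sets covered 20 of the 49 genes and the others all 49. The smallest adjusted p was 0.697. No paired analysis was possible because the groups share no replicate number. The count at an unadjusted limma p under 0.05 was 1 and became 2 with quantile normalization, array weights or the muscle covariate. The background in these settings was 5.05%, 7.16% and 3.07% of all genes. Leaving out each frog gave 0 to 2, where the background was 3.16% to 7.5%. The gene *kcna3* was in that count in 12 of 14 alternatives, with differences from 0.21 to 0.31, and missed it without leptin frog 5 and with the muscle covariate. *kcnq1* was in it without saline frog 2, with quantile normalization and with array weights. *scn4b* was in it without saline frog 3 and with the muscle covariate, and *scnn1b* with the muscle covariate. The count of genes whose groups did not overlap was 3, and it was 3 to 9 with a frog left out, where fewer frogs widen the background to between 21.7% and 29% of all genes. It was 2 with array centring (background 12.2%). With the average over the probe sets of each gene it was also 2, but no background was computed there, so that count cannot be read. In the brighter 50% of probe sets it was 2 of 20 genes (background 17.1%). The covariate fits give no such count. The median difference of 0.010 was -0.002 to 0.043 with a frog left out, 0.025 with array centring, -0.012 with quantile normalization, -0.007 with array weights, 0.020 with the pituitary covariate and -0.009 with the muscle covariate. Leaving out *scnm1* and *trpc4ap*, an alternative chosen after seeing the data, changed none of these counts.

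Most differences near 0 changed sign in some alternative, in 35 of 49 members, and the cause was not tested. Signs were read after rounding to 2 decimals, so a member at 0.00 in the main fit could not be counted. Such were *kcnj10* (-0.06 to 0.07 over the alternatives) and *kcnb2-a* (-0.11 to 0.07). Of the 35, 21 are among the 33 genes named by rule, and the other 14 are members outside that rule. The values that follow are those of the 21. With a frog left out, the lowest and highest differences were *cacna1a* -0.08 to 0.06, *cacna1s* -0.24 to 0.03, *cacna2d3* -0.07 to 0.25, *cacnb1* -0.27 to 0.03, *cacng1* -0.11 to 0.02, *cacng5* -0.10 to 0.26, *kcna7* -0.01 to 0.32, *kcnd3* -0.06 to 0.17, *kcne3* -0.14 to 0.25, *kcnip2* -0.39 to 0.02, *kcnk7* -0.03 to 0.17, *kcnk9* -0.06 to 0.21, *scn1a* -0.20 to 0.10, *scn2b* -0.03 to 0.06, *scnn1b* -0.63 to 0.20, *scnn1d* -0.03 to 0.14, *scnn1g* -0.04 to 0.13, *trpc1* -0.18 to 0.10, *trpm7* -0.13 to 0.11. With quantile normalization, the changed values were -0.03 (*cacna1a*). With array weights, the changed values were -0.05 (*cacna1a*), -0.14 (*kcne3*), -0.01 (*scnn1g*), 0.10 (*trpm7*). With the pituitary covariate, the changed values were -0.01 (*cacna1a*), 0.01 (*cacna1s*), 0.03 (*cacnb1*), 0.10 (*trpc1*). With the average over the probe sets of each gene, the changed values were 0.01 (*cacnb1*), 0.04 (*cacnb3*), 0.01 (*scn1a*). With the muscle covariate, the changed values were -0.19 (*cacng5*), -0.12 (*kcnd3*), -0.12 (*kcnk9*), -0.01 (*kcnma1*), -0.09 (*scnn1g*).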
